A study of Homo sapiens with 4 samples.

Results

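The genes described here were 42 factors of DNA repair and of the DNA damage checkpoint, listed by name for their place in these pathways, with earlier results of these data known. Of these, 41 had a row among the 18567 genes of the deposited expression table, and all 41 reached at least 1 TPM (a level scaled for transcript length and for the size of the library) in at least 2 of the 4 samples, as did 16817 genes in all. FANCF, a subunit of the Fanconi core complex, was not analysed here. RNA was sequenced from Kasumi-1, an established acute myeloid leukemia cell line that carries the RUNX1-RUNX1T1 fusion. The NC group (n = 2) was compared with the sh-ANP32B group (n = 2), in which a short hairpin RNA was directed against ANP32B, a nuclear acidic protein that binds histones. The labels give the NC samples as untreated and without an shRNA, whereas the methods of the study describe stable cells carrying a control hairpin and selected with puromycin. Neither source says which ANP32B hairpin was sequenced, when RNA was taken, or whether the 2 samples of a group were separate cultures, so the p-values below measure only the spread between these samples.

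Cells mend breaks in both DNA strands either by homologous recombination, which copies the sister chromatid during S and G2 phase, or by end joining, which religates the ends at any stage of the cycle. The Fanconi anemia pathway opens crosslinks between the strands, and mismatch repair and base excision repair deal with wrong or damaged single bases. Damage is reported by the kinases ATM and ATR to CHEK2 and CHEK1, which hold the cell cycle. Much of this machinery, and that for recombination above all, is transcribed mainly in dividing cells.

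The target of the hairpin had 384 and 392 TPM in the NC samples and 51.8 and 41.2 TPM in the sh-ANP32B samples, so that ANP32B fell to 11.99% of the NC mean (log2 fold change -3.04, standard error 0.150, adjusted p = 0.00516, limma). Of 8 markers of Kasumi-1 and myeloid blasts, 6 were in the table, at 1.55 TPM (KIT) to 364 TPM, and CD34 and MPO were not analysed here. RUNX1T1, whose RNA comes largely from the fusion in this line, had 17.6 and 15.6 TPM in NC against 31.2 and 26.8 TPM in sh-ANP32B, and CD33 had 58.5 to 70.1 TPM. All 6 lay higher without overlap in sh-ANP32B, as did 33.2% of all genes tested. The median log2 fold change of the 6 was 0.46, and their summed level was 554 to 576 TPM in NC against 737 to 752 TPM in sh-ANP32B. None had an adjusted p under 0.05 in limma, and 3 were higher at an unadjusted p under 0.05 (15% of all genes). Among 10 markers of B, T, erythroid, epithelial, stromal and endothelial cells, 2 were in the table, of which PECAM1, an endothelial marker that myeloid cells also carry, had 34.8 to 58.7 TPM. The read depth of the samples is unknown, because TPM keeps no depth. Within a group, the SD of log2(TPM + 1) was 0.273 in NC and 0.356 in sh-ANP32B. The mitochondrially encoded genes took 12.9 to 13.1% of all TPM in NC and 8.43 to 11.4% in sh-ANP32B.

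Most repair and checkpoint genes had less RNA in the sh-ANP32B samples. Their summed level was 2484 and 2593 TPM in the NC samples and 1862 and 1619 TPM in the sh-ANP32B samples. In 39 of the 41 genes the log2 fold change was negative, compared with 42.1% of all genes tested, and their median log2 fold change was -0.57, compared with 0.08 over all genes. In 36 of the 41 both sh-ANP32B samples lay below both NC samples, which 21.4% of all genes did. Both sh-ANP32B samples lay above both NC samples for 2 genes, ATM and LIG4, against 33.2% of all genes, and the groups overlapped for XRCC3, FANCL and PMS2. Because bulk RNA was measured, fewer cycling cells and less RNA per cell cannot be told apart.

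When each gene was tested by limma with adjustment over all 16817 genes, RAD54L, FANCI and EXO1 fell with an adjusted p under 0.05, which is 3 of 41 against 1.18% of all genes called lower. No gene of the list was called higher by limma, against 2.14% of all genes, and at an unadjusted p under 0.05 limma had 1 (ATM) higher (15% of all genes) and 27 lower (8.72%). A further 12 genes had an adjusted p from 0.05 to 0.10, the smallest being 0.0507 for PRKDC, which made 15 lower under 0.1 (3.73% of all genes) and 0 higher (6.2%). The criterion of the study was a log2 fold change past 0.5 in either direction at a p under 0.05 from DESeq2. Applied here to the limma fit with unadjusted p, it gave 25 genes lower (6.55% of all genes) and 0 higher (12.1%). The count of 3 rested on each NC sample, since without either of them it was 0, while it was 29 without sh-ANP32B replicate 1 (9.68% of all genes) and 21 without replicate 2 (8.47%), each with a lone sample assumed to vary like the other group. It was 0 as well without the abundance trend of the variance, and 26 after correction for GC content (8.9% of all genes), while the study criterion gave 12 genes without NC replicate 1 (3.84%) and 9 without NC replicate 2 (3.54%).

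**Figure D1:**
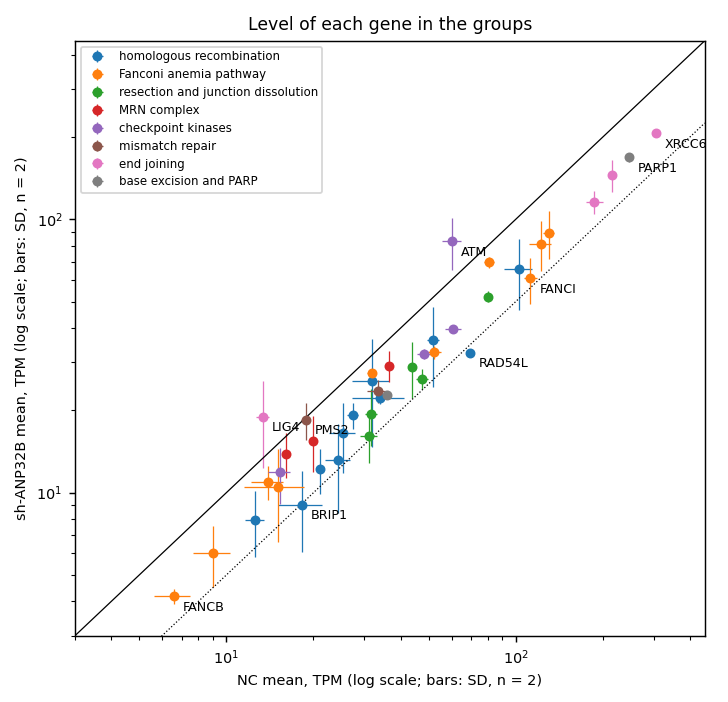
Mean level of each of the 41 genes in sh-ANP32B (vertical axis, TPM, log scale) against NC (horizontal axis, TPM, log scale), with bars of 1 SD (n = 2) and colors for the repair route. The solid line marks equal levels and the dotted line a level 1 log2 unit lower: 39 of the genes lie below the solid line, ATM and LIG4 lie above it, and RAD54L and BRIP1 lie just below the dotted line.

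Stretches of promoter sequence are shown for genes that differ in their response, to let the region before the transcription start be read beside the RNA. They come from RefSeq on GRCh38.p14 and are written 5′ to 3′ on the strand of the gene, with the motif in capitals. Each window searched ran from 250 bases before a start to 50 bases after it, and 36 of the 42 listed genes had a window. The stretches of EXO1, FANCD2, RAD54L and RAD50 run past the start by up to 12 bases, to the end of the motif. EXO1, RAD50 and MRE11 follow from a rule on fold change and motif, and FANCD2, RAD54L and CHEK2 were chosen after their values were seen. EXO1 (chr1:241848114-241848215, plus strand), which fell, and FANCD2 (chr3:10026347-10026442, plus strand) are shown with the E2F consensus. RAD54L (chr1:46247578-46247690, plus strand), which fell, CHEK2 (chr22:28741821-28741930, minus strand) and MRE11 (chr11:94493845-94493974, minus strand) are shown with the CCAAT box. RAD50 (chr5:132556887-132556981, plus strand), with the log2 fold change nearest 0 among end joining and MRN genes, is shown with an E-box.
EXO1: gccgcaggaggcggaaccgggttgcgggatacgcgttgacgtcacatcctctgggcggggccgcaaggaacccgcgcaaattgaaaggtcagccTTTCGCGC
FANCD2: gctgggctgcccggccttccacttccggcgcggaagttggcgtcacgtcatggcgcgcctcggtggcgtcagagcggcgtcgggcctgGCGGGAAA
RAD54L: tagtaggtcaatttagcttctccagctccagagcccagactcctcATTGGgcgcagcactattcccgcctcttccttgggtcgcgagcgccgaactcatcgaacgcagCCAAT
CHEK2: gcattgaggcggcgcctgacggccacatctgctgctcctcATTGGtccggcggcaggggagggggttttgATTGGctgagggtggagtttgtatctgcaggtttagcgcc
RAD50: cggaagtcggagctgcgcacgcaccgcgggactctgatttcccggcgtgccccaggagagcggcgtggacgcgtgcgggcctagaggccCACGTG
MRE11: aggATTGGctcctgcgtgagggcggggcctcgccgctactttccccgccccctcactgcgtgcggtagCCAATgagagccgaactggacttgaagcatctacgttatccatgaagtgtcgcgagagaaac

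A gene counted as holding a motif if any of its windows did, and the 36 genes had 55 windows. The E2F consensus was searched as TTTCCCGC, TTTCGCGC, TTTGCCGC and TTTGGCGC on both strands. It was held by 10 of the 36 genes (27.8%) against 3.99% of the 27305 genes with a window, whether measured here or not. These were XRCC2, FANCA, FANCC, FANCD2, RMI1, EXO1, MSH6, PMS2, XRCC6 and UNG. Their log2 fold changes ran from -0.84 for EXO1 to -0.03 for PMS2, and the median was -0.56 over the 10 genes with the motif and -0.55 over the 25 measured genes without it. The CCAAT box (CCAAT on either strand) was in 21 of 36 genes (58.3%, against 39.7% of all) with the same pair of medians, -0.56 with it and -0.55 without. TTTGAA, the letters of the CHR element, was in 5 genes (13.9%, against 18.2%) and CACGTG, the E-box, in 4 (11.1%, against 8.77%). For both the E2F consensus and the CCAAT box, the medians with and without the motif lay close together.

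Homologous recombination showed the lowest single value. All 11 measured genes had a negative log2 fold change (42.1% of all genes), with a median of -0.61. In 10 both sh-ANP32B samples lay below both NC samples (21.4% of all genes). As lower genes, 9 passed the study criterion (6.55%) and 1 passed the adjusted test (1.18%). RAD54L, a motor protein that acts in strand exchange (ENSG00000085999, chr1:46246461-46278480 on hg38, plus strand), had 70.1 and 68.9 TPM in NC against 33.0 and 32.02 TPM in sh-ANP32B. The replicates lay close together, and the level fell from 69.5 ± 0.850 to 32.5 ± 0.711 TPM (SD, n = 2 each), or to 46.8% of NC (log2 fold change -1.07, standard error 0.137, adjusted p = 0.0304, limma). Exons of RAD54L overlap those of LRRC41 on the opposite strand over 409 bases, and LRRC41 had a log2 fold change of 0.39 (adjusted p = 0.144).

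RAD54B, the related motor protein, had 22.6 and 26.02 TPM in NC against 16.5 and 9.83 TPM in sh-ANP32B. Its log2 fold change was -0.87 with a standard error of 0.256 and an adjusted p of 0.108, and the sh-ANP32B samples stood well apart from each other. Its exons share 1497 bases on the same strand with FSBP, so reads of these genes may have been split between them. BRIP1, a helicase that binds BRCA1, showed a similar spread, with 16.0 and 20.5 TPM against 11.2 and 6.94 TPM (log2 fold change -0.96, standard error 0.261, adjusted p = 0.0926).

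RNA of BRCA1, BRCA2 and the proteins that bind them was lower in both sh-ANP32B samples without passing the test. BRCA1, a ubiquitin ligase subunit, had 50.2 and 53.4 TPM in NC against 44.3 and 27.7 TPM in sh-ANP32B (log2 fold change -0.55, adjusted p = 0.209). Its partner BARD1 had 23.5 and 27.0 TPM against 19.9 and 13.2 TPM, and the ratio of BRCA1 to BARD1 was 2.14 and 1.98 in NC and 2.23 and 2.10 in sh-ANP32B, so the pair kept overlapping proportions. BRCA2, which acts on resected single-stranded DNA, had 11.9 and 13.2 TPM against 9.49 and 6.46 TPM, and PALB2, which joins BRCA1 to BRCA2, had 26.5 and 28.2 TPM against 20.7 and 17.7 TPM. For each of these 4 genes sh-ANP32B replicate 2 was the lowest sample.

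Among the factors of strand pairing, RAD51AP1, which stimulates pairing with the template, had 94.4 and 111 TPM in NC against 79.1 and 52.1 TPM in sh-ANP32B. RAD51C, which forms a complex with XRCC3, had 29.1 and 39.0 TPM against 21.4 and 23.0 TPM, and XRCC2 had 21.1 and 21.1 TPM against 13.8 and 10.6 TPM (log2 fold change -0.76, standard error 0.193, adjusted p = 0.0814). XRCC3 was the only gene of the route with overlapping groups. NC had 35.1 and 28.6 TPM of it, whereas sh-ANP32B replicate 1 had 17.9 TPM and replicate 2 had 33.4 TPM, and its log2 fold change of -0.36 (standard error 0.290, adjusted p = 0.503) was 0.07 without sh-ANP32B replicate 1 and -0.79, called lower (adjusted p = 0.0108), without replicate 2. XRCC3 shares 1853 exonic bases with KLC1 on the opposite strand, where KLC1 had a log2 fold change of 0.47 (adjusted p = 0.0905), and whether reads were counted by strand is not given in the sources used here.

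**Figure D2:**
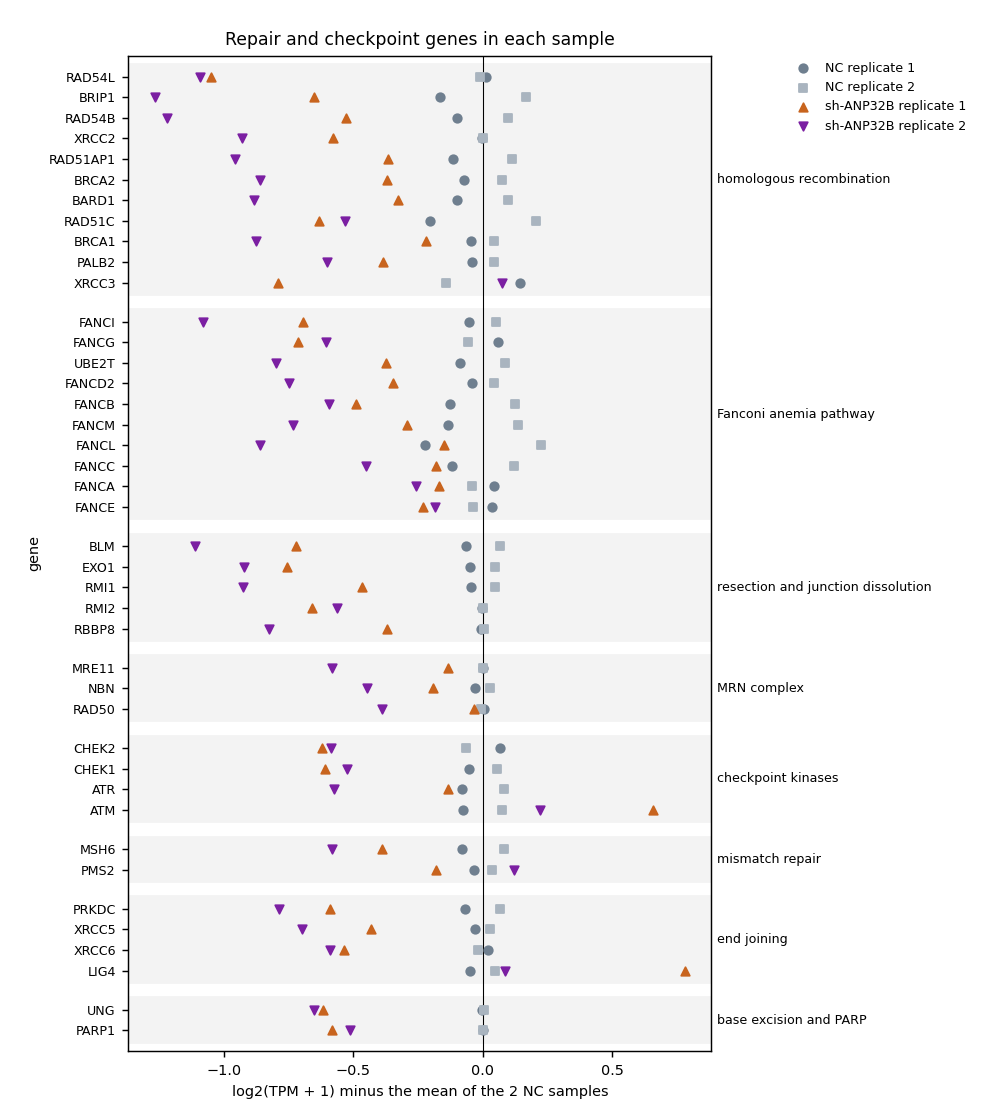
Level of each gene in each of the 4 samples as log2(TPM + 1) minus the mean of the NC samples (horizontal axis, log2 units), grouped by repair route. The sh-ANP32B points lie left of the NC points for 36 of the 41 genes, and replicate 2 lies left of replicate 1 for 32.

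In the Fanconi anemia pathway the substrate pair, rather than the core complex, held the gene that passed the test. All 10 measured genes had a negative log2 fold change (42.1% of all genes), with a median of -0.53. Lower without overlap were 9 (21.4% of all genes), while 4 passed the study criterion (6.55%) and 1 passed the adjusted test (1.18%). FANCI (ENSG00000140525, chr15:89243945-89317261 on hg38, plus strand), which is ubiquitinated together with FANCD2 at a stalled fork, had 108 and 116 TPM in NC against 68.9 and 52.6 TPM in sh-ANP32B. It fell from 112 ± 5.76 to 60.7 ± 11.6 TPM (SD, n = 2 each), or to 54.1% of NC (log2 fold change -0.89, standard error 0.167, adjusted p = 0.0457, limma), and with a pseudocount of 0.1 in place of 1 its adjusted p was 0.0508. Its exons overlap those of POLG on the opposite strand over 431 bases, and POLG had a log2 fold change of 0.08 (adjusted p = 0.791).

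FANCD2, the partner, had 126 and 134 TPM in NC against 102 and 76.9 TPM in sh-ANP32B (log2 fold change -0.55, standard error 0.167, adjusted p = 0.116). The ratio of FANCD2 to FANCI was 1.17 and 1.15 in NC and 1.48 and 1.46 in sh-ANP32B, so the ratio was higher in both knockdown samples, although the difference between the 2 genes was not tested. FANCD2 has a near-identical copy in the genome, which leaves its level uncertain. UBE2T, the ubiquitin-conjugating enzyme that modifies the pair, had 114 and 129 TPM against 93.5 and 69.5 TPM, and FANCL, the ligase that works with it, had 12.6 and 17.5 TPM against 13.3 and 7.73 TPM, with overlapping groups.

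The core complex differed from gene to gene. FANCG was the lowest, with 54.3 and 50.1 TPM in NC against 31.4 and 34.0 TPM in sh-ANP32B (log2 fold change -0.66, standard error 0.146, adjusted p = 0.0608). The others lay nearer to 0 or varied more. FANCA had 83.2 and 78.4 TPM against 71.7 and 67.3 TPM, and FANCE had 32.6 and 30.9 TPM against 26.9 and 27.8 TPM (log2 fold change -0.21, standard error 0.149, adjusted p = 0.447), the value nearest 0 in the route. FANCC had 12.6 and 15.1 TPM against 12.1 and 9.84 TPM. FANCB, the least abundant gene of the list, had 5.92 and 7.24 TPM against 4.37 and 3.998 TPM, and FANCM, a translocase that anchors the complex to DNA, had 8.04 and 9.90 TPM against 7.11 and 4.97 TPM. FANCA and FANCE were thus separated between the groups by small differences.

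All 5 genes of end resection and junction dissolution passed the study criterion as lower (6.55% of all genes). Their median log2 fold change, -0.70, was the lowest of the 8 routes. EXO1, an exonuclease that trims 5′ ends at breaks and mismatches (ENSG00000174371, chr1:241847967-241895148 on hg38, plus strand), had 45.9 and 49.2 TPM in NC against 27.7 and 24.6 TPM in sh-ANP32B. It fell from 47.5 ± 2.33 to 26.1 ± 2.19 TPM (SD, n = 2 each), or to 54.96% of NC (log2 fold change -0.84, standard error 0.152, adjusted p = 0.0441, limma). No exon of EXO1 overlaps another protein-coding gene. BLM, the helicase that dissolves double Holliday junctions, had 29.6 and 32.5 TPM against 18.4 and 13.8 TPM (log2 fold change -0.92, standard error 0.192, adjusted p = 0.0565). It lay just outside the threshold and was the lowest of the route.

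The subunits that hold BLM in its complex were lower as well. RMI1 had 30.5 and 32.7 TPM against 22.5 and 16.1 TPM (adjusted p = 0.102), and RMI2 had 79.9 and 80.2 TPM against 50.4 and 53.9 TPM (adjusted p = 0.0594). The ratio of RMI1 to BLM was 1.03 and 1.00 in NC and 1.22 and 1.17 in sh-ANP32B. RBBP8, which activates MRE11 at the start of resection, had 43.5 and 43.8 TPM against 33.5 and 24.2 TPM (log2 fold change -0.60, standard error 0.190, adjusted p = 0.125). In RBBP8 and RMI1 the second sh-ANP32B sample was lower than the first by more than the NC samples differed.

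The MRN complex, which senses breaks and recruits ATM, lay nearer to 0. None of its 3 genes passed the adjusted test in limma or an unadjusted p under 0.05. In all 3 (median log2 fold change -0.32), though, both sh-ANP32B samples were below both NC samples, as in 21.4% of all genes. The nuclease MRE11 had 19.9 and 19.9 TPM in NC against 18.1 and 12.96 TPM in sh-ANP32B (log2 fold change -0.36, standard error 0.205, adjusted p = 0.345). RAD50, the ATPase that tethers the ends, had 16.2 and 16.1 TPM against 15.7 and 12.1 TPM (log2 fold change -0.21, standard error 0.196, adjusted p = 0.565). For RAD50 the first sh-ANP32B sample was close to both NC samples, and 3902 of its exonic bases are shared on the same strand with the gene ENSG00000283782. NBN, the adaptor to ATM, had 35.8 and 37.3 TPM against 31.9 and 26.5 TPM. The ratio of MRE11 to RAD50 was 1.23 and 1.24 in NC and 1.15 and 1.07 in sh-ANP32B, and that of NBN to RAD50 was 2.21 and 2.32 against 2.03 and 2.19.

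The checkpoint kinases did not share a direction. ATM, the kinase activated by double-strand breaks, had 57.1 and 63.5 TPM in NC against 95.7 and 70.4 TPM in sh-ANP32B, with means of 60.3 ± 4.48 and 83.0 ± 17.8 TPM (SD, n = 2 each). Both knockdown samples were above both NC samples, but they were far apart, and the adjusted test was not passed (log2 fold change 0.44, standard error 0.180, adjusted p = 0.203, limma). After GC correction ATM was called higher (adjusted p = 0.0304), and likewise without sh-ANP32B replicate 2 (log2 fold change 0.66, adjusted p = 0.00535). Without sh-ANP32B replicate 1 it was 0.22 (adjusted p = 0.200), and with GC correction and the replicate block together ATM was not called (adjusted p = 0.0612). ATR, the kinase activated by single-stranded DNA, had 14.4 and 16.2 TPM against 13.8 and 9.92 TPM (log2 fold change -0.36, adjusted p = 0.373).

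Both effector kinases were lower in both knockdown samples, with replicates close together. CHEK2 had 63.7 and 58.1 TPM in NC against 39.2 and 40.2 TPM in sh-ANP32B (log2 fold change -0.60, standard error 0.140, adjusted p = 0.0688). CHEK1 had 46.4 and 50.1 TPM against 31.3 and 33.2 TPM (log2 fold change -0.57, standard error 0.145, adjusted p = 0.0818). The ratio of CHEK2 to ATM was 1.12 and 0.916 in NC and 0.409 and 0.571 in sh-ANP32B, which did not overlap. CHEK2 has near-identical copies elsewhere in the genome, so its level is uncertain.

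Of the mismatch repair genes, MSH6, which recognises the mismatch, had 31.5 and 35.3 TPM in NC against 25.2 and 21.9 TPM in sh-ANP32B (log2 fold change -0.49, standard error 0.164, adjusted p = 0.141). PMS2, a subunit with nuclease activity, had 18.3 and 19.3 TPM against 16.5 and 20.5 TPM, with a log2 fold change of -0.03 and a standard error of 0.183 (adjusted p = 0.943). The knockdown samples of PMS2 lay on either side of the NC samples, and its near-identical copies leave the value uncertain.

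In end joining, 3 of 4 genes passed the study criterion as lower (6.55% of all genes). XRCC6 and XRCC5, the subunits of the Ku ring that binds broken ends, had 309 and 301 TPM and 211 and 219 TPM in NC, and 210.2 and 202 TPM and 159 and 132 TPM in sh-ANP32B. Their log2 fold changes were -0.56 (adjusted p = 0.0565) and -0.57 (adjusted p = 0.0763), and their ratio was 1.47 and 1.37 in NC and 1.32 and 1.53 in sh-ANP32B. PRKDC, the catalytic subunit of DNA-PK that Ku recruits, had 178 and 196 TPM against 124 and 108 TPM (log2 fold change -0.69, standard error 0.137, adjusted p = 0.0507). LIG4, the ligase that seals the ends, had a positive value. NC had 12.9 and 13.9 TPM of it, whereas sh-ANP32B replicate 1 had 23.7 TPM and replicate 2 had 14.2 TPM (log2 fold change 0.43, standard error 0.256, adjusted p = 0.357), so that its difference came almost wholly from one sample: the log2 fold change was 0.08 without replicate 1 and 0.78 (adjusted p = 0.0126) without replicate 2.

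The base excision and PARP genes had replicates close together. UNG, which cuts uracil out of DNA, had 35.8 and 36.0 TPM in NC against 23.0 and 22.5 TPM in sh-ANP32B (log2 fold change -0.64, standard error 0.149, adjusted p = 0.0696). PARP1, which marks strand breaks with poly(ADP-ribose), had 247 and 247 TPM against 164 and 172 TPM (log2 fold change -0.55, standard error 0.119, adjusted p = 0.0590). Neither passed the adjusted test.

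**Figure D3:**
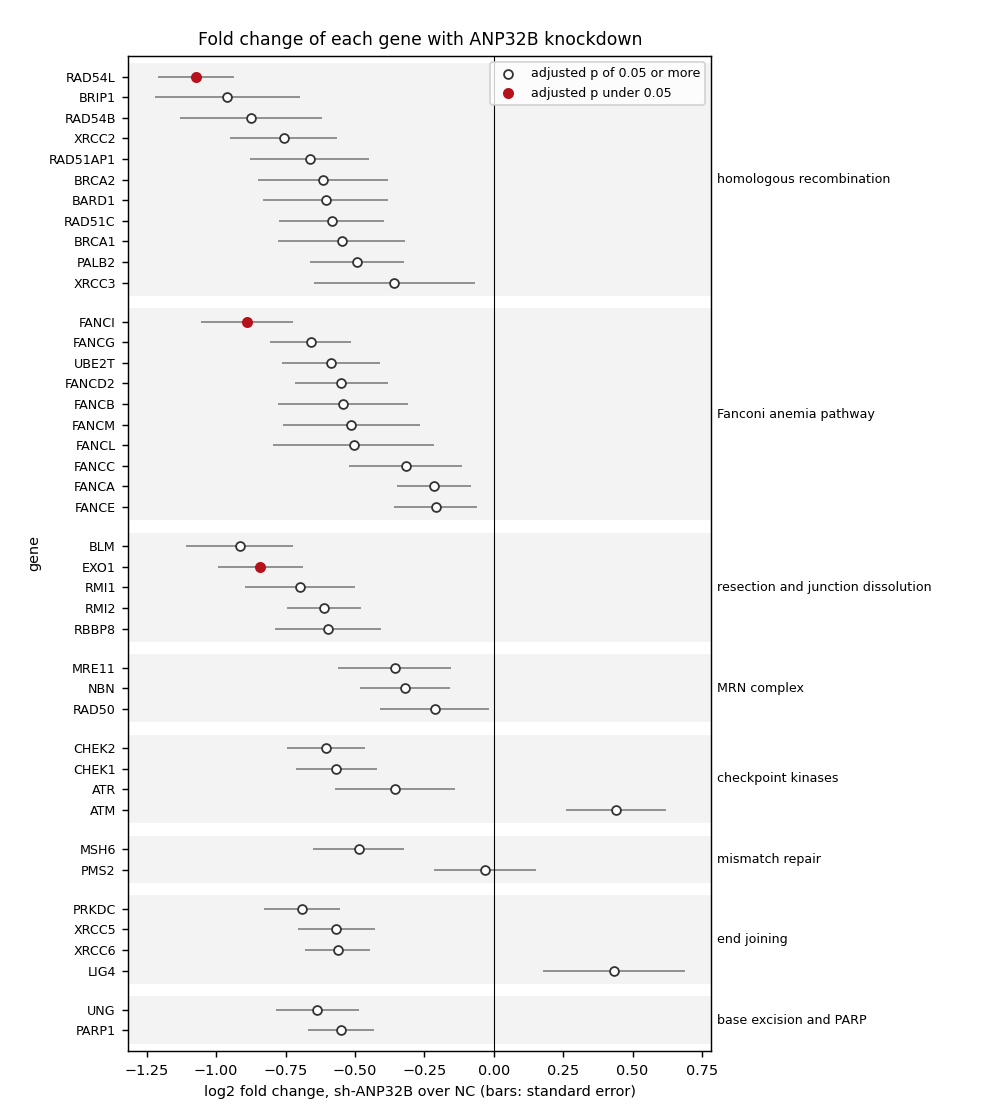
Log2 fold change of each gene, sh-ANP32B over NC on log2(TPM + 1) (horizontal axis), by route, with bars of 1 standard error from limma. RAD54L, FANCI and EXO1 (filled red) had an adjusted p under 0.05, and ATM (0.44) and LIG4 (0.43) are the only points right of 0.

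Other DNA repair and checkpoint genes, nucleotide excision repair included, were compared from a list of 111, of which 110 passed the filter on low values. Their median log2 fold change was -0.18, nearer to 0 than the -0.57 of the 41 genes, and 73 of 110 were negative. Of the 110 genes, 50 lay lower without overlap (21.4% of all genes) and 17 higher (33.2% of all genes). SEM1, a small protein that binds BRCA2 and is also a proteasome subunit, fell from 47.7 and 42.8 TPM to 22.04 and 18.2 TPM (log2 fold change -1.13, adjusted p = 0.0351, limma). FIGNL1, an ATPase that acts in recombination, fell from 90.7 and 93.9 TPM to 55.3 and 42.5 TPM (log2 fold change -0.91, adjusted p = 0.0442). CLSPN, the adaptor through which ATR activates CHEK1, fell from 47.8 and 46.2 TPM to 23.3 and 16.2 TPM (log2 fold change -1.23, adjusted p = 0.0406). EME2, a partner of the nuclease MUS81, rose from 13.6 and 15.9 TPM to 28.4 and 35.7 TPM (log2 fold change 1.07, adjusted p = 0.0440). The study criterion was passed by 24 lower (6.55% of all genes) and 5 higher (12.1%). SEM1, FIGNL1, CLSPN and EME2 were the 3 lower (1.18% of all genes) and 1 higher (2.14%) that passed the adjusted test. None of the 4 was called without the abundance trend, without NC replicate 1 only CLSPN was, and without NC replicate 2 SEM1 and CLSPN were.

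By route, the medians of these other genes were -0.56 for mismatch repair (4 genes), -0.38 for checkpoint sensors and mediators (17 genes), -0.32 for Fanconi and crosslink repair (12 genes) and -0.19 for homologous recombination (20 genes). Resection and junction resolution (11 genes) had -0.17, end joining (12 genes) -0.16 and base excision with single-strand breaks (20 genes) -0.15. Nucleotide excision repair, which removes bulky lesions and has no gene in the list of 42, had 0.03 (14 genes). These medians describe the lists and were not tested against each other.

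Proliferation markers moved with the repair genes. All 12 of 12 had a negative log2 fold change without overlap (median -0.69), as did 21.4% of all genes. An adjusted p under 0.05 in limma was reached by 5 that fell (1.18% of all genes), namely MKI67 (-0.90), PCNA (-0.95), TYMS (-0.88), MCM2 (-0.95) and BUB1 (-0.84). The summed level of all 12 markers was 3238 to 3321 TPM in NC and 1885 to 2147 TPM in sh-ANP32B. None of the 5 was called without either NC sample or without the abundance trend. The part of these markers in the lower level of the repair genes was not tested. Targets of p53, the transcription factor activated by ATM and CHEK2, were mixed, with a median log2 fold change of 0.08 over the 15 tested. At an adjusted p under 0.05 in limma, 2 rose (2.14% of all genes) and 0 fell (1.18%). At an unadjusted p under 0.05 in limma, 1 was lower (8.72% of all genes) and 4 were higher (15%). CDKN1A, the inhibitor of cyclin-dependent kinases, rose from 15.4 and 18.3 TPM to 30.8 and 41.5 TPM (log2 fold change 1.05, adjusted p = 0.0482, but 0.0580 with median-of-ratios scaling and 0.0521 with a pseudocount of 0.1), and BTG2, an antiproliferative factor, rose from 7.38 and 11.5 TPM to 23.3 and 26.3 TPM (log2 fold change 1.33, adjusted p = 0.0440). Without NC replicate 1 neither was called (adjusted p = 0.168 and 0.114). CDKN1A and BTG2 were not called without the abundance trend either (adjusted p = 0.121 and 0.116, limma). At an unadjusted p under 0.05 in limma only, BBC3 (log2 fold change 1.10) and TNFRSF10B (0.63) were higher and AEN (-1.25) was lower. The groups did not overlap for any of these. MDM2, the ligase that degrades p53, had 10.9 and 12.8 TPM against 14.8 and 10.6 TPM, with overlapping groups. GADD45A, a stress-induced gene, had 4.47 and 4.36 TPM against 3.40 and 5.91 TPM, with overlapping groups as well.

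**Figure D4:**
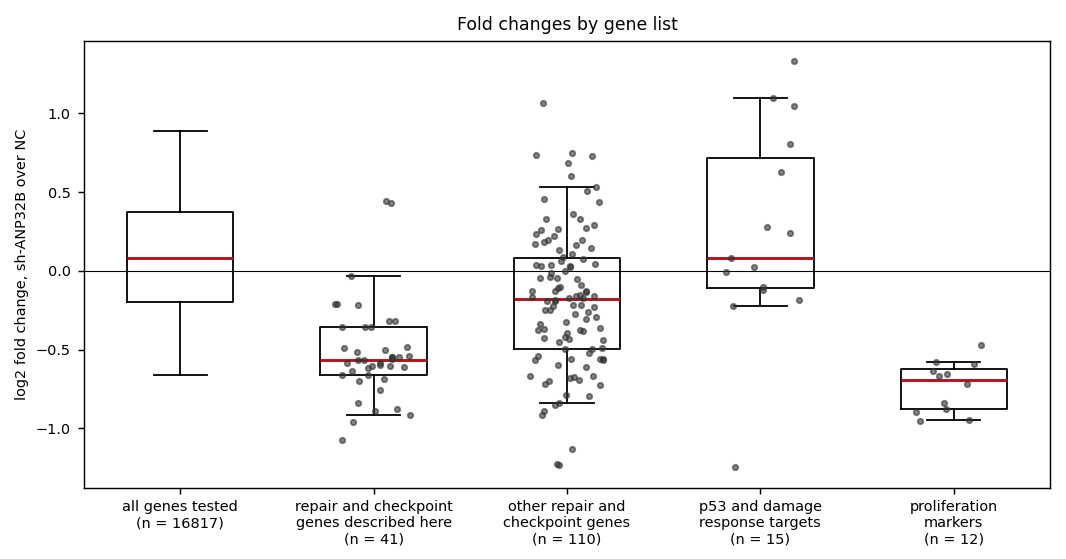
Log2 fold changes (vertical axis, sh-ANP32B over NC) of all genes tested, the 41 genes described here, other repair genes, p53 targets and proliferation markers, with a point for each gene of a list, the median as a red line, the middle 50% of genes as a box and the 5th to 95th percentile as whiskers. The medians are 0.08, -0.57, -0.18, 0.08 and -0.69.

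The sh-ANP32B samples differed from each other along the GC content of the transcripts. Replicate 2 was below replicate 1 for 32 of the 41 genes. The median difference from the NC mean was -0.39 log2 units in replicate 1 and -0.60 in replicate 2, while 38 genes in replicate 1 and 37 in replicate 2 lay below both NC samples. The repair genes were poor in GC, with a median of 41.6% over the longest transcript of each gene (range 33.1 to 63.8%), against 48.1% over all genes. Across the 41 genes, which share the same 4 libraries, the gap between both knockdown replicates ran with GC content (Spearman rho 0.753, and 0.577 over 15427 genes), whereas the log2 fold change between the groups hardly did (rho 0.083).

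Among the 28 genes under 45% GC, replicate 2 was below replicate 1 in 26, compared with 6 of the 13 genes at or over 45%. The median log2 fold change was -0.57 in the first set and -0.56 in the second. When each sample was corrected for GC content by a smooth curve, the median was -0.61, and 26 of the 41 genes were lower with an adjusted p under 0.05 (8.9% of all genes) and 1, ATM, was higher (7.53%). BRCA2 then had an adjusted p of 0.0343, BRIP1 0.0173, CHEK2 0.0105, CHEK1 0.0326, PRKDC 0.00678, XRCC6 0.00749 and PARP1 0.00844, whereas RAD50 (0.265) and PMS2 (0.816) were still uncalled.

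**Figure D5:**
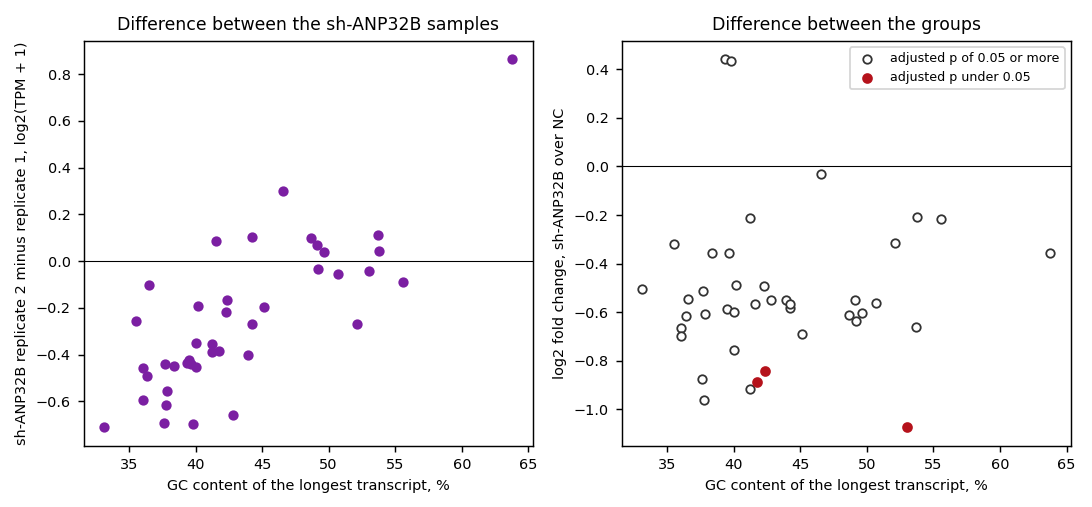
Each of the 41 genes by the GC content of its longest transcript (horizontal axes, percent). On the left, the difference between the sh-ANP32B replicates (replicate 2 minus replicate 1, log2(TPM + 1)) is mostly below 0 under 45% GC, and on the right the log2 fold change between the groups shows no such slope (Spearman rho 0.753 and 0.083).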

How the data were processed

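Libraries were prepared with the TruSeq RNA kit from 2 NC and 2 sh-ANP32B samples of Kasumi-1. The submitters' processing notes name HISAT2 2.0.5 and hg38; the program, annotation and filter behind the expression table are not given in the sources used here. The deposited values are TPM per gene, as the authors' column sums of 997812 to 998314 show, so read depth is unknown and no counting interval can be given. Gene symbols, coordinates, GC content and exons were taken from GENCODE 44, which holds 16986 of the 18567 IDs.

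Genes that reached 1 TPM in 2 or more of the 4 samples were tested with limma 3.58.1 (R 4.3.3) on log2(TPM + 1) with an abundance trend, two-sided, with Benjamini-Hochberg adjustment over all 16817 genes. Fold changes are on this scale and understate those of low genes. The gene members and lists were chosen with earlier results of these data known. Genes with an adjusted p under 0.05 and the extremes of each route were given full statistics, and the values of other genes follow their role. The code was tested on simulated data.

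Deviations from the group mean of samples sharing a number had Pearson's r = -0.0925 and Spearman's rho = -0.168 across genes, so the numbers were not taken as pairs. Alternatives were median-of-ratios scaling, removal of mitochondrial genes, other filters, a pseudocount of 0.1, no trend, a replicate block, GC correction (loess, span 0.3) and omission of each sample. GC correction with the block, the threshold of 0.1 and the count of separated groups were added after the data were seen. Values of some marker and partner genes are not reported here.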

Additional observations from a re-analysis of the deposited data

How the results depend on the processing

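The 41 genes kept a negative median under every alternative run. The median, -0.57 as reported, was -0.65 with median-of-ratios scaling (which moved the median of all genes from 0.08 to 0.01), -0.62 without mitochondrial genes, -0.61 with GC correction with or without the replicate block, and -0.60 to -0.39 when 1 sample was left out. The count of genes called lower, 3 as reported, was 8 with median-of-ratios scaling (1.69% of all genes), 6 without mitochondrial genes, 8 with at least 1 TPM in all 4 samples, 0 without the abundance trend, 26 with GC correction, 15 at an adjusted p under 0.1, and 0 to 29 when 1 sample was left out. RAD54L, FANCI and EXO1 were among those called in each of these except without the trend and without either NC sample, and FANCI was lost with a pseudocount of 0.1. The count called higher, 0 as reported, was 1 with GC correction and 0 to 2 with 1 sample left out. By the study criterion, 9 to 32 were lower and 0 to 2 higher with 1 sample left out. Genes lower without overlap numbered 36 to 38 throughout. The replicate block, the trend and the pseudocount cannot change this number, and leaving out a sample cannot lower it. No share of all genes is given without mitochondrial genes, with 1 TPM in all 4 samples or without the trend. The counts called in those settings cannot be set against the whole table.

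Samples with the same replicate number did not deviate together, so the replicate block is only an alternative: it called 8 of the 41 genes lower (2.92% of all genes), and 23 with GC correction added (6.55%). Among the other repair genes the block called 13 lower and 4 higher (2.92% and 5.84% of all genes). With GC correction added it called 27 lower and 5 higher (6.55% and 5.15% of all genes).

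Of the other repair genes, 3 were called lower and 1 higher as reported. The lower count was 7 with median-of-ratios scaling (1.69% of all genes), 7 with at least 1 TPM in all 4 samples, 0 without the trend and 30 with GC correction. The higher count was 0 without the trend and 4 with GC correction. Over all genes, the share called lower was 1.18% as reported and 8.9% with GC correction, and the share called higher was 2.14% and 7.53%. With GC correction, the lower and higher counts thus rose along with the shares of the whole table. For 1 TPM in all 4 samples and for the run without the trend, no share of all genes is given. ANP32B kept its log2 fold change of -3.04 without the trend, with an adjusted p of 0.0929.

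Leaving out 1 sample reversed XRCC3 (-0.790 to 0.0736) and PMS2 (-0.181 to 0.119); XRCC3 was called lower without sh-ANP32B replicate 2 (adjusted p = 0.0108), and PMS2 in none of these. With 2 samples a group and unknown depth, a gene that missed the threshold is not shown to be unaffected. The causes of these shifts were not tested.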
